A study of Homo sapiens with 14 samples.

Results

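Cyclooxygenases and prostaglandin synthases turn arachidonic acid into prostaglandins and thromboxane. The 10 genes described here were listed by symbol: the cyclooxygenases PTGS1 and PTGS2, the prostaglandin E synthases PTGES, PTGES2 and PTGES3, the synthases PTGDS, PTGIS and TBXAS1, and the inactivating enzymes HPGD and PTGR1. All 10 were found among the 61541 genes of a count table from BxPC-3, a human pancreatic cancer line. It covers 3 libraries labelled shControl with genotype WT, a short hairpin control, and 3 labelled shHDAC5 with genotype HDAC5 knockdown, a hairpin against the histone deacetylase HDAC5, all taken on day 3. The sources used here do not give the hairpins or say that the libraries came from separate cultures, so p-values cover the spread between libraries alone, which may be technical. The series also holds chromatin immunoprecipitation of the transcription factor GATA1 in PANC-1, another human pancreatic cancer line, under the same shControl and shHDAC5 labels on day 3, with 1 peak list for each.

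Phospholipases free arachidonic acid from membranes, and a cyclooxygenase converts it to the unstable intermediate prostaglandin H2. PTGS1 is the form most tissues make continuously, and PTGS2 is the form induced by growth factors and cytokines and the target of selective inhibitors. Terminal synthases then set which prostanoid leaves the cell, and HPGD and PTGR1 act in sequence to inactivate prostaglandin E2 and its relatives. In the pancreas, PTGS2 and prostaglandin E2 are known for their part in inflammation and in cancer.

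Library totals ran from 15179758 to 17854340 counts. From 25775 to 26078 genes had a count in a library labelled shControl, and from 33115 to 33632 in one labelled shHDAC5. Log2 CPM of the genes tested correlated at 0.992 or higher within groups and at up to 0.8165 between them. Of 19181 genes tested, 84.7% were called at an adjusted p under 0.05, so a call by itself sets no gene apart here. The targeted gene went against the label: HDAC5 stood at 94.9 ± 2.99 CPM (counts scaled to library size; SD, n = 3) with the shControl label and at 164 ± 4.44 CPM with the shHDAC5 label, so every direction below is one between labels. Of 10 pancreatic epithelial markers, 3 rose and 3 fell of 8 tested, beside 44.8% and 39.9% of all genes tested. Their sum ran from 1650 to 1682 CPM under shControl labels and from 1361 to 1429 CPM under shHDAC5 labels. That sum hides larger changes: KRT7 fell from 371 to 25.3 CPM, MUC1 from 166 to 11.3 CPM, and KRT8 rose from 717 to 1010 CPM. CEACAM6 went from 0 to 8.39 CPM, and it reached 10 counts only under shHDAC5 labels, so once tested it had to differ. The defining markers KRT19, EPCAM and CDH1 were near 0 under both labels, at 0.0215, 1.84 and 1.43 CPM and at 0.0947, 1.99 and 1.33 CPM, so whether the cells are the labelled line is in doubt. In bulk RNA, fewer cells of a type and less RNA per cell cannot be told apart. Inside the peak lists the names go against the labels, GATA1-SAHA-IP for the shControl list and GATA1-NC-IP for the shHDAC5 list, so the lists' conditions are uncertain.

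A promoter of each cyclooxygenase gene is shown first because the genes differ so widely in level. Each runs from 250 bases before to 50 bases after the gene start (RefSeq, GRCh38.p14), 5′ to 3′ on the gene's strand, and positions are counted from the start. Capitals mark the sequence motifs searched: in PTGS1 the letters TTTATA at position -208, which read as a TATA box on the other strand, the GATA motif AGATAA at -178 and the GC box GGGCGG at -58, and in PTGS2 the letters TTCGTCA, a variant of the cyclic AMP response element, at -60 and a TATA box TATAAA at -32.
PTGS1 promoter, chr9:122370283-122370582, plus strand: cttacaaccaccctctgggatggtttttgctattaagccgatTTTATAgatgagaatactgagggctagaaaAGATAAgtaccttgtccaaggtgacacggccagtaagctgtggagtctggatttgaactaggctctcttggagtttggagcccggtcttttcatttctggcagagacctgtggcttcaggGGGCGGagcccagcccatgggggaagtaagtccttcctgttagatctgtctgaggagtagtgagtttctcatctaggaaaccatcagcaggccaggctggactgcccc
PTGS2 promoter, chr1:186680374-186680673, minus strand: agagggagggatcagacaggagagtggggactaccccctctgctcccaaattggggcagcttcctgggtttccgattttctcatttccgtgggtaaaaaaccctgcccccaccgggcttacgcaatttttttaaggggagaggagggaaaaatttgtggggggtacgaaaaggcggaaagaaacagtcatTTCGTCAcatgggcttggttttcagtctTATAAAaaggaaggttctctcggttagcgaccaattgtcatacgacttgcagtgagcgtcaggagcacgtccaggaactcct
Among 34943 promoters of this length, a GATA motif on either strand (AGATAA, also allowing T as its first or G as its last letter) was in 25%, TATAAA in 11.6%, GGGCGG in 44.9% and TTCGTCA in 0.982%. Of the 13 promoter windows of the 9 genes with an entry, the one of PTGS1 above is the only one with a GATA motif. Both printed windows are 50.7% G and C, against a median of 58.7% over all promoters. PTGS1 has another promoter window further inside the gene, chr9:122375052-122375351, which is not printed. It is 64.7% G and C, with a GC box at -202 and no GATA or TATA letters. These are matches of letters and not measured binding sites.

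PTGS1 RNA was lower under shHDAC5 labels while PTGS2 RNA, scarce in all 6 libraries, did not pass the test. PTGS1 (ENSG00000095303; chromosome 9, 122370533 to 122395703, hg38) makes prostaglandin H2 for housekeeping needs. It stood at 1051, 1025 and 1065 CPM in the libraries labelled shControl and at 379, 363 and 378 CPM in those labelled shHDAC5. The groups are far apart, and within each group the libraries lie close together. Means were 1047 ± 19.9 and 374 ± 9.06 CPM (SD, n = 3), a fall of 2.80-fold (log2 fold change -1.49, SE 0.0248; edgeR's quasi-likelihood test, Benjamini-Hochberg over all genes tested, adjusted p = 1.03e-80). In TPM, a level per gene length scaled to library size, PTGS1 ranked 109 of 19156 coding genes under shControl labels and 354 under shHDAC5 labels.

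PTGS2 (ENSG00000073756; chromosome 1, 186671791 to 186680423), the inducible cyclooxygenase, stood at 3.22, 2.79 and 4.10 CPM under shControl labels and at 2.19, 3.49 and 3.30 CPM under shHDAC5 labels. The groups overlap, and each library held only 37 to 68 PTGS2 counts. The log2 fold change was -0.18 (95% interval -0.58 to 0.23; edgeR, adjusted p = 0.415), so a fall or a rise within these bounds is not excluded. Of the TPM of both cyclooxygenases together, PTGS2 made up 0.322%, 0.287% and 0.405% under shControl labels and 0.604%, 1.00% and 0.912% under shHDAC5 labels. The log2 ratio of PTGS1 to PTGS2 counts was accordingly lower by 1.30 (8.28 ± 0.251 against 6.98 ± 0.388, SD, n = 3; exact permutation test, two-sided p = 0.1, the smallest that 3 against 3 allows).

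**Figure D1:**
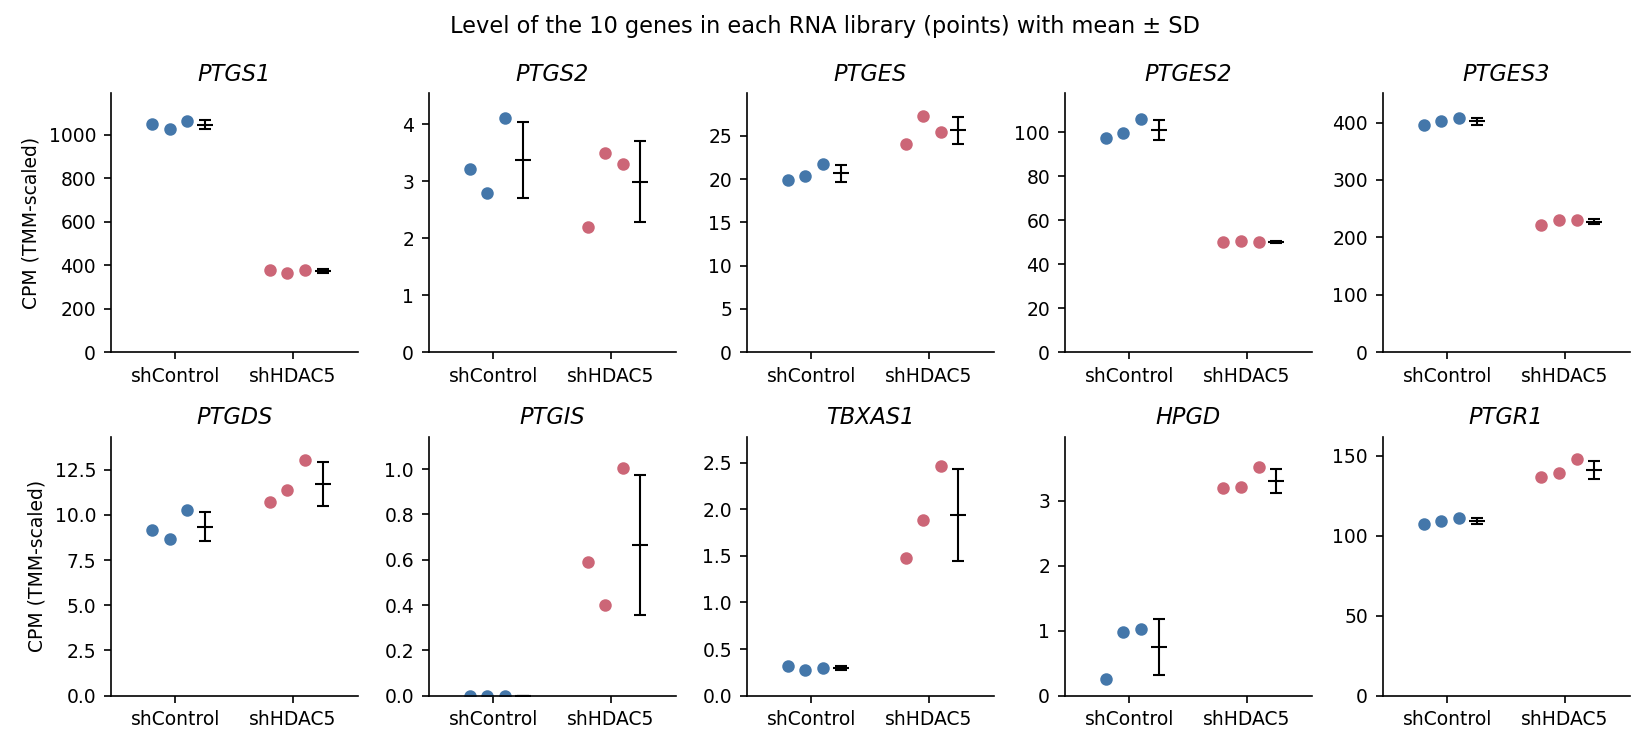
CPM (linear axes that start at 0, one panel for each of the 10 genes) in the 3 libraries labelled shControl (blue) and the 3 labelled shHDAC5 (red), as points, with bars for the mean and SD of each group. PTGS1 falls from a mean of 1047 to 374 CPM, HPGD and TBXAS1 rise from at most 1.03 CPM in a library labelled shControl, and the PTGS2 groups overlap.

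PACERR (ENSG00000273129), a noncoding RNA that starts beside PTGS2 on the opposite strand and is known as a regulator of PTGS2 transcription, fell to 1 or 2 counts in a library under shHDAC5 labels. Its RefSeq span is 186680654 to 186681446 on chromosome 1, 230 bases from the PTGS2 gene. The counted gene has a deposited length of 2544 bases, more than this span, so the counts cover a different gene model. Its counts were 45, 39 and 51 in the libraries labelled shControl and 2, 1 and 2 in those labelled shHDAC5. CPM fell from 2.90 ± 0.177 to 0.0958 ± 0.0335 (SD, n = 3), a log2 fold change of -4.82 (95% interval -5.70 to -3.94; edgeR, adjusted p = 2.14e-18). PACERR reached the filter's 10 counts only in the libraries labelled shControl, so once tested it had to differ. The neighbouring transcripts had similar counts in each library labelled shControl and not in those labelled shHDAC5. Their log2 ratio of PACERR to PTGS2 went from -0.20 ± 0.192 to -4.61 ± 0.726, a difference of -4.41 chosen for testing after the values were seen (exact permutation test, two-sided p = 0.1, the smallest possible).

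**Figure D2:**
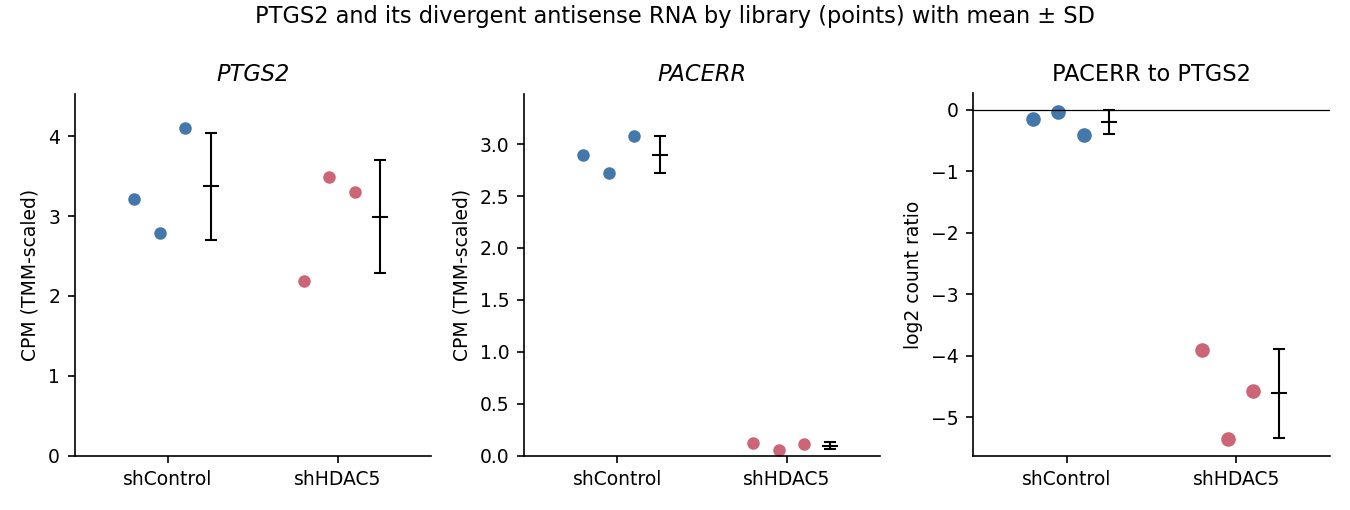
CPM of PTGS2 (left) and of PACERR (middle) and the log2 ratio of their counts (right) in the libraries labelled shControl (blue) and shHDAC5 (red), as points, with bars for the mean and SD. PACERR falls from 2.90 to 0.0958 CPM and the ratio from -0.20 to -4.61, while the PTGS2 points overlap between groups.

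The prostaglandin E synthases moved in opposite directions. PTGES, the inducible microsomal synthase usually coupled to PTGS2, rose slightly, and PTGES2 and PTGES3 fell. PTGES (ENSG00000148344; chromosome 9, 129738349 to 129753042) stood at 20.0, 20.3 and 21.8 CPM under shControl labels and at 24.1, 27.3 and 25.5 CPM under shHDAC5 labels. The lowest library labelled shHDAC5 is above the highest labelled shControl, and the rise was 1.24-fold (log2 fold change 0.31, SE 0.0763; edgeR, adjusted p = 0.000145). Its promoter is shown because a peak of the list labelled shControl lies over its start, with 2 GC boxes in capitals at positions -89 and -78.
PTGES promoter, chr9:129752993-129753292, minus strand: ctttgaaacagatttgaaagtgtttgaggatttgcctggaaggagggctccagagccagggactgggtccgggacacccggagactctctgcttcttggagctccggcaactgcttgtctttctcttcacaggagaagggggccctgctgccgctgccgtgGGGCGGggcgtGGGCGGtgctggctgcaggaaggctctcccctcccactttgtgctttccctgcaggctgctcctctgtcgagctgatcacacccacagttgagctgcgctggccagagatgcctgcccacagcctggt

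PTGES2 (ENSG00000148334; chromosome 9, 128120693 to 128128440), a second membrane-associated synthase, stood at 97.3, 99.9 and 106 CPM under shControl labels and at 50.1, 50.5 and 49.9 CPM under shHDAC5 labels. It fell 2.02-fold with no overlap (log2 fold change -1.01, SE 0.0446; edgeR, adjusted p = 2.46e-41). Its antisense transcript PTGES2-AS1 rose from 2.95 ± 0.626 to 5.92 ± 0.972 CPM (SD, n = 3; edgeR, adjusted p = 3.11e-07). The sources used here do not say whether counting used strand, so reads of the pair may not be separated where they overlap.

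PTGES3 (ENSG00000110958; chromosome 12, 56663349 to 56688284) is the cytosolic synthase and also p23, a cochaperone of the heat shock protein HSP90. It stood at 395, 403 and 407 CPM under shControl labels and at 222, 230 and 230 CPM under shHDAC5 labels. The groups do not overlap, and the fall was 1.77-fold (log2 fold change -0.82, SE 0.0277; edgeR, adjusted p = 1.69e-51). Of its 5 processed pseudogenes in the table, PTGES3P1 did not pass at 53 and 42 counts over each group and the others had almost none, so few reads were assigned to these copies.

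The makeup of prostaglandin E synthase RNA differed between labels. By TPM, PTGES made up 7.38%, 7.38% and 7.74% of the 3 synthases under shControl labels and 14.8%, 16.0% and 15.1% under shHDAC5 labels. PTGES3 made up the most by this measure in both groups, at 80.5% to 81.4% and at 74.9% to 75.8%. PTGES2 took 11.2% to 11.7% and 9.17% to 9.53%. By TPM, PTGES thus moved from the smallest share to the second in every library labelled shHDAC5. This order rests on the deposited lengths, 1891 bases for PTGES and 6084 for PTGES2. In CPM, which uses no length, PTGES2 stayed above PTGES there, at 49.9 to 50.5 against 24.1 to 27.3 CPM.

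The remaining terminal synthases were low throughout and higher under shHDAC5 labels. PTGDS (ENSG00000107317; chromosome 9, 136977504 to 136981742), the lipocalin-type prostaglandin D synthase, stood at 9.14, 8.66 and 10.26 CPM under shControl labels and at 10.7, 11.4 and 13.03 CPM under shHDAC5 labels. The groups are close but do not overlap, and means were 9.35 ± 0.820 and 11.7 ± 1.20 CPM (SD, n = 3; log2 fold change 0.32, SE 0.113; edgeR, adjusted p = 0.0068). Without shHDAC5 replicate 3, the highest library, it was 0.22 and no longer passed (edgeR, adjusted p = 0.103). The other prostaglandin D synthase, HPGDS, had 1 count in all 6 libraries together.

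TBXAS1 (ENSG00000059377; chromosome 7, 139778242 to 140020293), thromboxane synthase, is best known from platelets and macrophages. It stood at 0.322, 0.279 and 0.302 CPM under shControl labels, from 4 to 5 counts in a library, and at 1.48, 1.89 and 2.46 CPM, from 25 to 44 counts, under shHDAC5 labels. The groups do not overlap, and the rise was 6.33-fold (log2 fold change 2.66, SE 0.392; edgeR, adjusted p = 1.32e-09). Of 6 platelet markers, PF4 and PPBP were at 0 in every library. Of 3 tested, none rose and 1 fell, beside 44.8% and 39.9% of all genes tested. Sums over the 6 were 31.2 to 35.0 CPM and 21.4 to 24.0 CPM. Most of these sums came from ITGA2B, which fell from 19.6 to 9.19 CPM, and GP1BA, which did not pass at 12.2 and 13.1 CPM. Of 10 leukocyte markers, 2 of 3 tested rose and 1 fell, beside the same shares of all genes tested. Sums over the 10 were 6.22 to 7.47 CPM and 8.11 to 8.93 CPM, and the pan-leukocyte PTPRC stood at 0.0215 and 0.0968 CPM. The myeloid markers CD14 and ITGAM went from 0.0667 to 1.70 CPM and from 0 to 2.78 CPM, levels like that of TBXAS1 and likewise over 10 counts only under shHDAC5 labels, while CSF1R fell from 6.70 to 2.98 CPM. The part of platelet and leukocyte markers in the TBXAS1 result was not tested.

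PTGIS (ENSG00000124212; chromosome 20, 49503874 to 49568137), prostacyclin synthase, is typical of endothelium and smooth muscle. It was at 0 counts in all 3 shControl libraries and at 10, 7 and 18 counts, or 0.591, 0.401 and 1.01 CPM, under shHDAC5 labels. Its level there was at least 10.36-fold higher than 3 counts over the control group would give. It was too low for the filter and was not tested in the main comparison. Every library labelled shHDAC5 had a count at more genes than any labelled shControl, so such a gain is not particular to PTGIS. Of 8 endothelial and smooth muscle markers, 3 of 6 tested rose and 1 fell, beside 44.8% and 39.9% of all genes tested. Sums over the 8 were 12.5 to 15.8 CPM and 32.1 to 35.0 CPM. The smooth muscle DES rose from 1.91 to 16.8 CPM and TAGLN from 4.72 to 9.47 CPM, MYH11 fell from 3.56 to 2.204 CPM, and the endothelial VWF went from 0.238 to 2.26 CPM, over 10 counts only under shHDAC5 labels. PECAM1 had 1, 0 and 1 counts and 4, 15 and 1 counts. The part of these markers in the PTGIS result was not tested. Of 7 fibroblast markers, 1 of 4 tested rose and 3 fell, beside the same shares of all genes tested. Sums over the 7 were 120 to 130 CPM and 117 to 120 CPM, with LUM at 0 throughout. Within that near-equal sum COL1A1 fell from 92.3 to 79.6 CPM and PDGFRB to 6.59 CPM from 29.6 CPM. COL6A3, over 10 counts only under shHDAC5 labels, stood at 0.131 and 32.4 CPM.

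Both inactivating enzymes rose. HPGD (ENSG00000164120; chromosome 4, 174490175 to 174522893), the 15-hydroxyprostaglandin dehydrogenase that starts prostaglandin breakdown, stood at 0.257, 0.978 and 1.03 CPM under shControl labels and at 3.19, 3.21 and 3.52 CPM under shHDAC5 labels. The first library labelled shControl, with 4 counts, is well below its replicates, and all 3 are below every library labelled shHDAC5. The rise was 4.35-fold (log2 fold change 2.12, SE 0.287; edgeR, adjusted p = 7.10e-11), and without shControl replicate 1 the log2 fold change was 1.70. The log2 ratio of PTGES to HPGD counts, a maker against a remover of prostaglandin E2, was lower by 1.99 (4.94 ± 1.02 against 2.94 ± 0.121, SD, n = 3; exact permutation test, two-sided p = 0.1, the smallest possible), and by 1.41 without that replicate.

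PTGR1 (ENSG00000106853; chromosome 9, 111549722 to 111599647), a reductase that follows HPGD in prostaglandin breakdown and also reduces leukotriene B4, was far more abundant. It stood at 107, 109 and 111 CPM under shControl labels and at 137, 139 and 148 CPM under shHDAC5 labels. The groups do not overlap, and the rise was 1.29-fold (log2 fold change 0.37, SE 0.0360; edgeR, adjusted p = 6.47e-17). Its gene overlaps ZNF483, which fell from 4.29 to 2.52 CPM, so some reads may not be assigned with certainty.

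Over the 10 genes, 9 were tested. Of these, 5 rose, against 44.8% of all genes tested, 3 fell, against 39.9%, and 1 did not pass. The same 8 had groups that did not overlap, 5 higher and 3 lower, against 84.8%, 45.0% and 39.8% of all genes tested. A change of at least 2-fold was called for HPGD, TBXAS1, PTGS1 and PTGES2, 4 of the 9, against 46.5%. The median log2 fold change was 0.31, against 0.09 over all genes tested. These shares are near the background. TBXAS1 reached the filter's 10 counts only in the libraries labelled shHDAC5 and so had to differ, and HPGD reached them in 2 of 3 libraries labelled shControl and 3 of 3 labelled shHDAC5, so the counts are no support for a direction of the group.

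**Figure D3:**
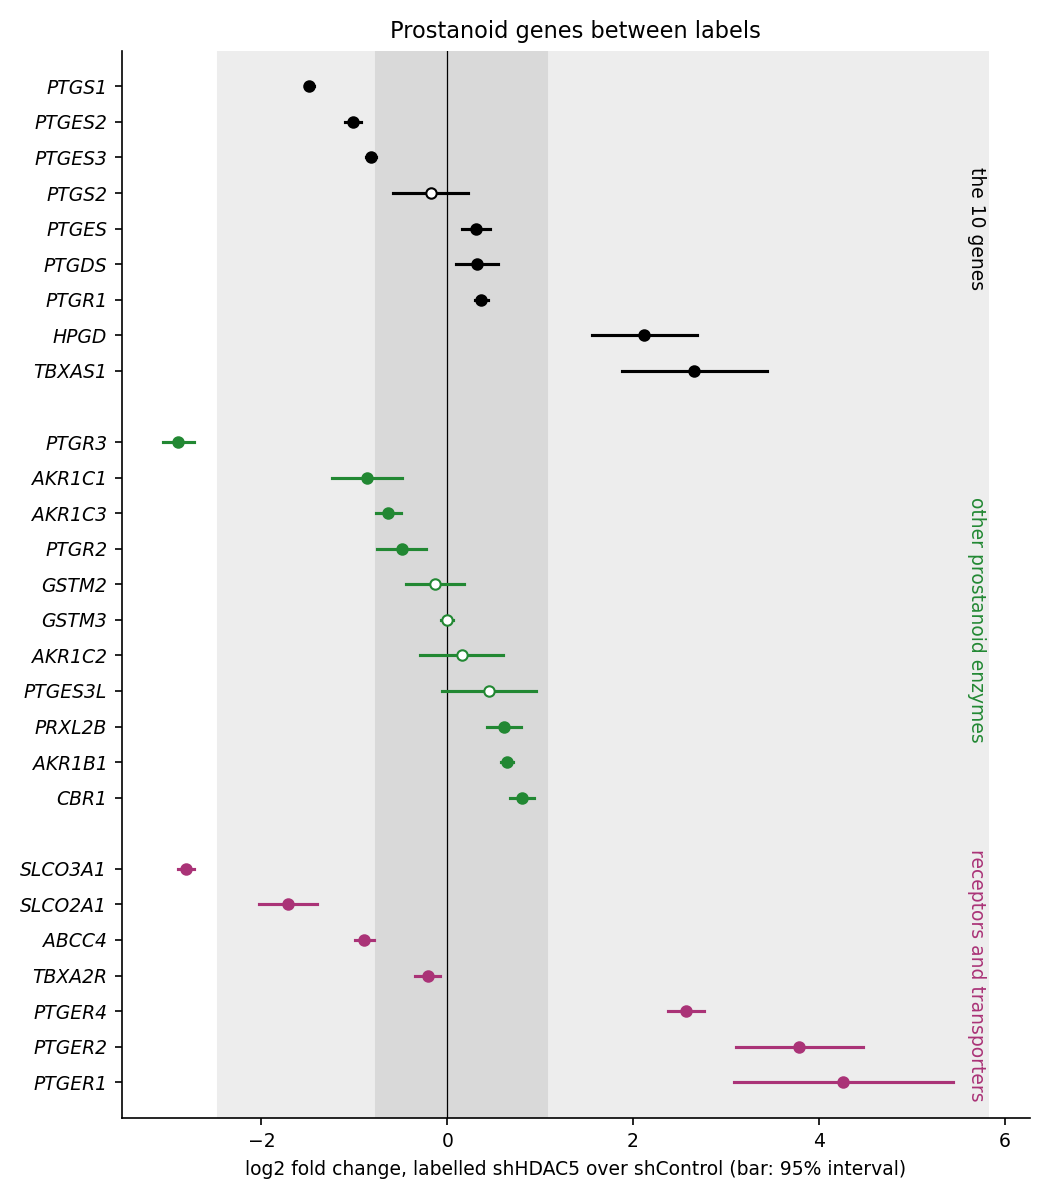
Log2 fold change between labels (bars: 95% interval) of the 9 tested genes and, below them, of the tested other prostanoid enzymes, receptors and transporters. Filled points passed the test and open points did not, and the dark and light bands hold the middle 50% and 90% of all 19181 genes tested. PTGS1, PTGES2 and PTGES3 lie below 0, PTGS2 spans 0 and TBXAS1, at 2.66, lies farthest above of the 9.

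Ordered by TPM, RNA of PTGS1 and PTGES3 led in both groups. Under shControl labels, PTGS1 at 623 to 645 TPM stood above PTGES3 at 413 to 418 TPM, followed by PTGR1, PTGES2, PTGES, PTGDS and PTGS2 without overlap between neighbours. HPGD and TBXAS1 came next and overlapped each other, and PTGIS was at 0. Under shHDAC5 labels PTGES3 at 247 to 257 TPM and PTGS1 at 239 to 248 TPM overlapped, PTGES passed PTGES2, and HPGD at 2.18 to 2.39 TPM overlapped PTGS2 at 1.51 to 2.42 TPM. These orders depend on the deposited lengths, and in CPM PTGS1 stayed above PTGES3 and PTGES2 above PTGES. Summed over the 10 genes, levels went from 1250 to 1280 TPM under shControl labels to 731 to 753 TPM under shHDAC5 labels. PTGS1 alone made 49.8% to 50.9% of that sum in the first group and 32.0% to 33.9% in the second.

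**Figure D4:**
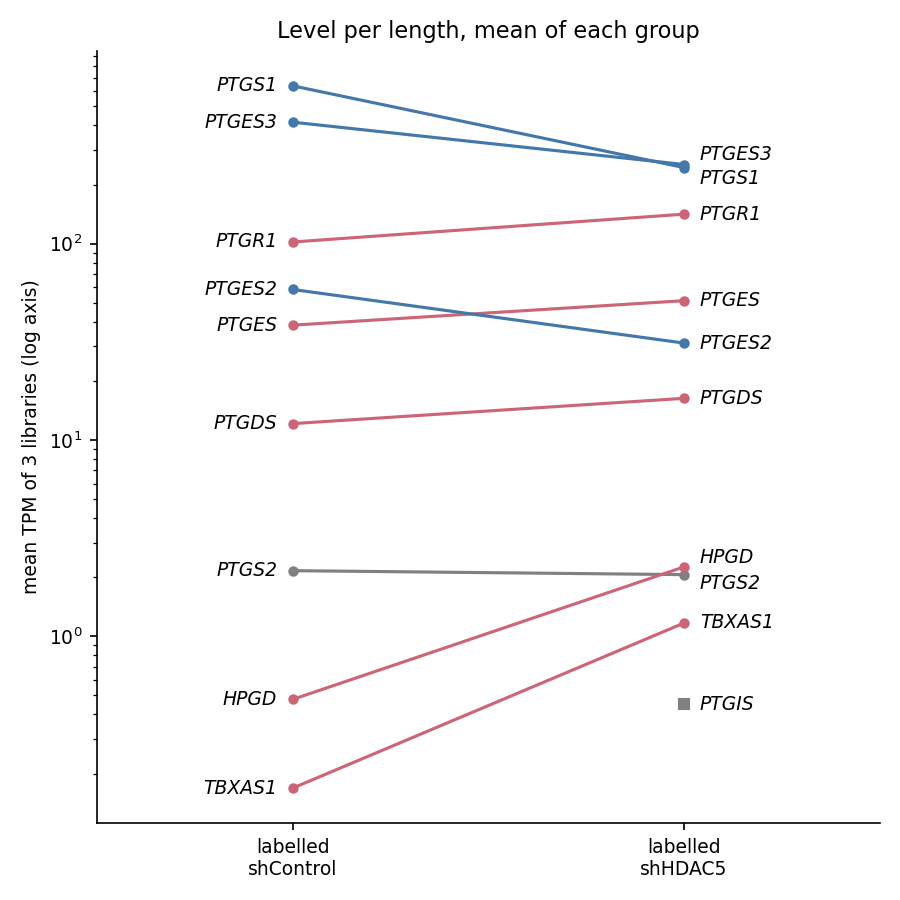
Mean TPM (log axis) of the 10 genes in the 3 libraries of each label, with lines joining the means of one gene in blue where it fell, red where it rose and grey where it did not pass the test. PTGS1 and PTGES3 lead at both ends and meet under shHDAC5 labels, PTGES crosses PTGES2, and the square is PTGIS, which is at 0 under shControl labels and was not tested.

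Upstream of the cyclooxygenases, arachidonate-releasing enzymes moved in both directions. Of 11 listed genes 9 were tested, 5 rose, 2 fell and 2 did not pass, and the median log2 fold change was 1.06, beside 44.8% that rose, 39.9% that fell and a median of 0.09 over all genes tested. The share that rose is near that background. The phospholipase PLA2G15 rose from 26.0 ± 1.23 to 130 ± 2.31 CPM, and PNPLA8 and PLA2G12A rose 3.29-fold and 3.28-fold (edgeR, adjusted p = 2.78e-71, 4.43e-67 and 1.91e-55). PLA2G4A, the cytosolic phospholipase that supplies the cyclooxygenases in many cells and the nearest tested coding gene to PTGS2, rose from 24.6 ± 2.48 to 51.7 ± 3.07 CPM (SD, n = 3). MGLL, which releases arachidonate through the endocannabinoid 2-arachidonoylglycerol, fell from 190 ± 3.10 to 69.3 ± 1.79 CPM.

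Downstream, prostanoid-handling enzymes moved both ways. Of 13 further enzymes, 11 were tested, 3 rose, 4 fell and 4 did not pass (median -0.00, against the same background). PTGR3, another prostaglandin reductase, fell 7.43-fold, from 50.4 ± 1.35 to 6.76 ± 0.980 CPM (SD, n = 3; edgeR, adjusted p = 4.44e-58). AKR1B1, an aldose reductase with prostaglandin F synthase activity, rose from 115 to 180 CPM, and CBR1, a carbonyl reductase that converts prostaglandin E2, from 26.5 to 46.2 CPM. AKR1C3, a prostaglandin F synthase, fell from 40.9 to 26.4 CPM, a value that near-identical AKR1C copies make uncertain.

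Receptors and transporters also split. Of 12 listed genes 7 were tested, 3 rose and 4 fell (median -0.21, against the same background). The prostaglandin E2 receptors PTGER4 and PTGER2, which raise cyclic AMP, rose, PTGER4 to 34.1 ± 0.231 CPM from 5.73 ± 1.403 and PTGER2 to 3.68 ± 0.526 CPM from 0.255 ± 0.0932 (SD, n = 3; edgeR, adjusted p = 1.55e-46 and 1.15e-18). PTGER2 and PTGER1, another prostaglandin E2 receptor, reached the filter's 10 counts only under shHDAC5 labels, so 2 of the 3 that rose had to differ once tested. SLCO3A1, a carrier that can take up prostaglandins, fell 7.01-fold, from 220 ± 2.84 to 31.3 ± 3.04 CPM, and the exporter ABCC4 fell from 62.2 to 33.5 CPM. TBXA2R, the thromboxane receptor, fell from 32.4 ± 1.24 to 28.0 ± 1.26 CPM (edgeR, adjusted p = 0.00275) and was named after its value was seen. PTGDR, a prostaglandin D2 receptor, was at 0 in every library.

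Of 18 genes known to control PTGS2 transcription or mRNA stability, all were tested, 6 rose and 12 fell (median -0.69), where 44.8% of all genes tested rose, 39.9% fell and the median was 0.09. The transcription factors JUN and EGR1 rose 12.2-fold and 6.80-fold (edgeR, adjusted p = 4.55e-88 and 1.82e-81). NFKB1 and CEBPD, further transcription factor genes of the list, fell 18.3-fold and 36.4-fold (edgeR, adjusted p = 1.16e-65 and 4.45e-64). PACERR, described above, also belongs to this list. PTGS2 itself did not pass beside these changes in both directions.

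Genes listed as HSP90 and other chaperones and cochaperones, for the role of PTGES3 as p23, moved in both directions. Of 14 listed and tested genes, 10 rose, 3 fell and 1 did not pass (median 0.26), beside 44.8% and 39.9% of all genes tested and a median of 0.09, a difference that was not tested. The cochaperones DNAJB1 and CDC37 rose 2.24-fold and 2.04-fold (edgeR, adjusted p = 4.89e-59 and 2.00e-57). HSP90AB1, the constitutive cytosolic HSP90, fell 1.60-fold and the cochaperone FKBP4 fell 2.11-fold (edgeR, adjusted p = 1.72e-52 and 7.45e-50).

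GATA1 peaks in PANC-1 were counted in each gene and the 10 kb around it. The fold enrichment and q of each peak are the authors' own. On the main chromosomes the list labelled shControl holds 121070 peaks and the list labelled shHDAC5 249139. A higher count in the second list is therefore not by itself particular to these genes. The list labelled shControl has 38 peaks at 8 of the 10 genes, none of them at PTGS2 or HPGD, and the list labelled shHDAC5 has 76 peaks at all 10. Among coding genes, 82.8% and 92.7% have such a peak, so having one is common. Per 100 kb the 10 genes hold 5.63 and 11.3 peaks, beside 6.78 and 8.81 over coding genes. Of the 38 and 76 peaks, 5 and 5 overlap a peak of the other list. GATA1 RNA itself stood at 0.344 ± 0.0930 CPM under shControl labels and 2.85 ± 0.438 CPM under shHDAC5 labels in the BxPC-3 libraries (SD, n = 3), and reached the filter's 10 counts only in the latter. The lists come from another cell line than the RNA, and with 1 list for each label no difference between them was tested.

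Most of these peaks are weak, and so are most peaks of the whole lists. Median fold is 2.67 and 2.24 at the 10 genes, against 2.73 and 2.33 over all peaks. Over all peaks, 6176 of 121070 and 1045 of 249139 have a q of at most 0.05. The authors' q is 1 for 31 of the 38 and 64 of the 76 peaks, and fold enrichment runs from 2.11 to 4.25 and from 1.71 to 3.85. At the 10 genes the only peak with a q of at most 0.05 lies inside PTGIS at chr20:49540219-49540607, in the list labelled shControl. It has a fold of 4.25 and a q of 0.0162. The next is at PTGES3, chr12:56687329-56688238, 910 bases wide with its summit 494 bases inside the gene, a fold of 4.07 and a q of 0.0559. HPGD's highest peak, chr4:174530352-174530838 in the list labelled shHDAC5, has a fold of 3.85 and a q of 0.188. TBXAS1, the longest of the genes, holds 5 peaks of the shControl list and 33 of the other.

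Over the 13 promoter windows, the list labelled shControl has a peak at 4, those of PTGES, PTGES2, PTGES3 and PTGDS, and the other list at 2, those of PTGS2 and PTGR1. Of all promoter windows, 19.9% and 7.67% hold one. At PTGDS the peak chr9:136977160-136977763 has a fold of 3.23 and its summit 89 bases from the start, and at PTGES the peak chr9:129752738-129753086 has a fold of 2.39. The PTGS2 peak, chr1:186680640-186681034, also lies over the start of the RefSeq span of PACERR. Its summit is 220 bases before the PTGS2 start, with a fold of 1.86 and a q of 1. The PTGS1 promoter printed above, which has the GATA letters, has no peak in either list. In the shControl list peaks were densest at PTGDS and PTGES2, at 37.1 and 32.4 for each 100 kb against a median of 4.80 over coding genes, and 6.40% and 8.74% of coding genes reach those values.

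**Figure D5:**
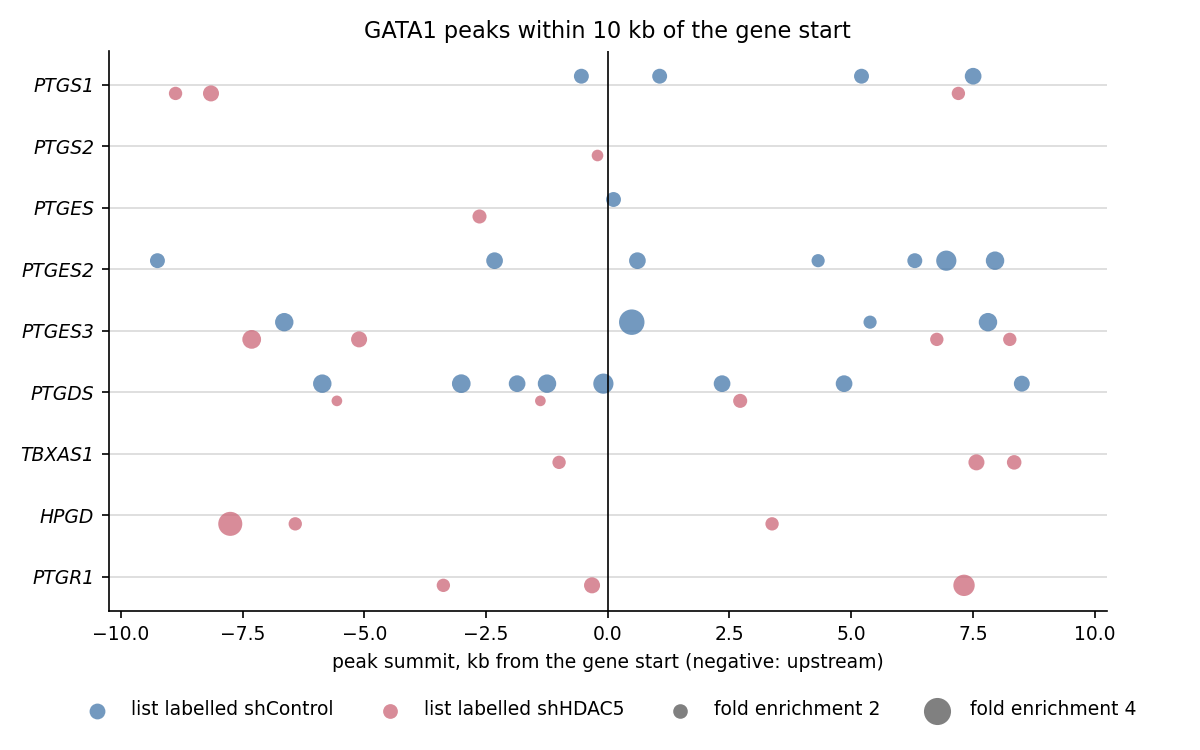
GATA1 peaks of the list labelled shControl (blue) and of that labelled shHDAC5 (red) within 10 kb of each gene's start, placed by the distance of the summit from the start in kb, with point size for the authors' fold enrichment. PTGIS, with no start in the reference table, is left out. The start used for TBXAS1 is that of its promoter window, chr7:139829014-139829313, which lies inside the gene span given above. Overlapping peaks just before that span, chr7:139777300-139777557 (shControl list) and chr7:139777204-139777560 (shHDAC5 list), are therefore not plotted. The largest point is the PTGES3 peak, with a fold of 4.07 at 494 bases inside the gene.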

How the data were processed

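RNA libraries (6, labelled BxPC-3) were analysed with GATA1 chromatin immunoprecipitation in PANC-1. The authors deposited whole-number counts per gene with gene lengths, and 2 peak lists with a fold (ratio) enrichment and −log10 q for each peak, per the file headers and values. The authors' deposited lists hold 1 list for each label, where the labels name 2 immunoprecipitations. Tools in the submitters' processing notes, listed there without roles, are MACS2 2.2.7.1, featureCounts 2.0.1, fastp 0.23.2, FastQC 0.11.9 and deepTools 3.5.0, with the build hg38. The inputs were not analysed here.

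Genes under the count filter of edgeR 4.0.16 (filterByExpr, minimum 10) were left out, and its quasi-likelihood test with TMM scaling was run on all 19181 others in R 4.3.3, with p adjusted by Benjamini-Hochberg and called under 0.05, after a check on simulated data. CPM uses TMM-scaled totals, and TPM uses the deposited lengths. Count ratios had 0.5 added to each count. Intervals are 95% and cover the spread between libraries. The count in each library limits precision: 3 counts correspond to 0.168 to 0.210 CPM.

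The genes and lists were chosen with earlier results of these data known. All 10 genes are named, and of each other list up to 4 called genes with the smallest adjusted p, except for genes said to be named after their values were seen, HPGDS, PTGDR, PTGER1, neighbouring or antisense genes and markers of cell types, some of which were also named after their values were seen. Motifs were searched on both strands in 300-base windows. Those searched also included TGACGTCA, CACGTG and GCGGGGGCG, with no match in the printed promoters. Promoter and gene positions come from RefSeq tables (GRCh38.p14), and PTGIS had no promoter entry. Alternatives were DESeq2 1.42.0, other scalings and filters, a 2-fold minimum, a replicate block, each library left out, and other peak windows and thresholds.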

Additional observations from a re-analysis of the deposited data

How the results depend on the processing

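With DESeq2, other scalings, no filter, a replicate block and each library left out, the counts of 5 genes that rose and 3 that fell stayed within 1.5 times of themselves. With a minimum of 2-fold, 2 rose. PTGS2, which did not pass in any setting, changed sign with total counts alone as scaling (log2 fold change 0.0062, edgeR, adjusted p = 0.978), a scaling that raises the median over all genes by 0.18, as upper-quartile scaling does by 0.14. PTGDS lost its call without shHDAC5 replicate 3 (0.22). Leaving out 1 library, the difference in log2 ratio ran from -1.52 to -1.16 for PTGS1 to PTGS2, from -2.29 to -1.41 for PTGES to HPGD and from -4.77 to -4.04 for PACERR to PTGS2. DESeq2 called 15491 genes and edgeR 16241.

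The labels do not say whether same-numbered libraries share an origin. Over all genes tested, same-numbered libraries' deviations from their group means correlated at -0.0126, 0.00258 and 0.00593. These values show no pairing across genes, but a shared origin that affects few genes could also give them. With the replicate block 16072 genes were called, and 5 and 3 of the 10 genes still rose and fell. In this balanced design a block cannot change a difference of means, so that of the log2 ratio of PTGS1 to PTGS2 stayed at -1.30. Its p was 0.25 with the block (exact permutation test).

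Peak counts at the 10 genes moved with the window and threshold. In place of 38 and 76 peaks, the gene alone held 20 and 50 and 50 kb on each side 114 and 143. At a q of at most 0.05 there were 1 and 0, of 6176 and 1045 in the whole lists. At a fold of at least 5 there were 0 and 0, of 587 and 86. Counting by summit gave 38 and 75. Depth limits PTGIS, TBXAS1, HPGD and PACERR, with at most 18, 44, 63 and 51 counts in a library.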

Other observations

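Of the 10 genes, 5 lie on chromosome 9: PTGR1, PTGS1, PTGES2, PTGES and PTGDS. Of 570 coding genes tested there, 44.4% rose and 44% fell, against 44.1% and 44.4% on the other chromosomes. Coding neighbours moved in either direction. Beside PTGES2, which fell, the mitochondrial carrier SLC25A25 rose from 29.0 to 121 CPM and BBLN from 32.4 to 73.9 CPM. Beside PTGES, which rose, the homeobox gene PRRX2 fell from 11.02 to 0.990 CPM while TOR1B rose from 43.9 to 86.9 CPM. Beside PTGS1, MRRF fell from 106 to 50.6 CPM and RBM18 rose from 51.3 to 115 CPM. Beside TBXAS1, which rose, the kinase gene HIPK2 fell from 36.3 to 13.5 CPM and PARP12 from 21.4 to 8.01 CPM. PTGDS and LCNL1, a lipocalin-like gene 1251 bases away, both rose, LCNL1 from 7.81 to 10.9 CPM. Beside PTGES3, both ATP5F1B and NACA fell with it, from 1029 to 717 CPM and from 470 to 218 CPM.

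Among 6608 well-expressed genes, those with a pattern over the 6 libraries most like that of PTGS1 were PACS1, LSM14A, PHF20, CKB and GNB4. The root mean square distance of their centred log2 CPM from that of PTGS1 was 0.0167, 0.0218, 0.0225, 0.0234 and 0.0236. PACS1, a sorting protein gene, went from 428 to 150 CPM, and CKB, the brain-type creatine kinase, from 508 to 182 CPM. The 6 libraries fall into 2 groups, so this measure mostly ranks genes by the size of the difference between them.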
